A study of Mus musculus with 41 samples.

Results

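Microglia of 1-week-old mice with Niemann-Pick type C disease (NPC) were compared with wild-type (WT) microglia of the same age, before the study's later sampling ages. The comparison holds 8 of the 41 samples in the series, chosen from the labels by strain and age: 4 libraries of untreated BALB/c mice (WT) and 4 of untreated BALB/cNctr-Npc1m1N/J mice (NPC), all aged 1 week. The NPC strain carries a germline mutation of Npc1, so the neurons and other glia of these animals carry it as well as the microglia. The groups bear different strain names, so any other difference between the strains cannot be told apart from the mutation. In both groups the cells were sorted from the cerebellum by CD11b and Tmem119, and each group has libraries lettered A, B, C and D. The labels count mice as replicates and do not say whether a WT and an NPC library with the same letter share a litter, a sort or a day. Untreated WT and NPC libraries at 3, 6 and 9 weeks (23 samples) entered the same model and serve as the later ages.

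Npc1 is a membrane protein of late endosomes and lysosomes that passes cholesterol from the lysosome lumen to the rest of the cell. Without it, cholesterol and sphingolipids accumulate in lysosomes, and in mice the Purkinje cells of the cerebellum are lost over the following weeks. Microglia are the resident macrophages of the brain. In the first postnatal weeks they engulf dying cells and myelin debris, and a part of them carries a postnatal programme with Gpnmb, Spp1, Igf1 and Itgax that overlaps the programme called disease-associated in injured or ageing brain.

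The 8 libraries held 23.2 M to 40.5 M reads (M, 1000000; median 27.8 M). All 8 carried the sorting and identity genes of microglia. Tmem119 lay between 84823 and 134829 normalized counts in WT and between 52430 and 101458 in NPC libraries, and Itgam, which encodes CD11b, between 26554 and 33547 in WT and between 21391 and 31685 in NPC. Csf1r, the receptor on which microglial survival depends, had a fold of 0.956 (95% confidence interval 0.796 to 1.15), Sall1, a transcription factor of microglial identity, 0.985 (0.729 to 1.33), and P2ry12 0.878 (0.702 to 1.1). None of these passed the test. All 8 libraries expressed Y-linked Ddx3y (1070 to 1499 normalized counts), and Xist did not exceed 11.1 in any of them. Y-linked Eif2s3y varied more, with 1842, 1121, 1577 and 1932 in WT and 583, 1427, 157 and 1315 in NPC libraries (limma adjusted p = 0.117).

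Values are given below in normalized counts, the reads of a gene divided by the size factor of its library, in the order of libraries A, B, C and D. Changes are NPC minus WT on the log2(value + 1) scale with their standard error (SE), tested with limma on 31 libraries and adjusted by the Benjamini-Hochberg method. A gene is said to rise or fall where its adjusted p was below 0.05. Folds are on the same scale.

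At 1 week 204 of 14046 genes differed between NPC and WT microglia (1.45% of the genes tested): 123 rose (0.876%) and 81 fell (0.577%). Most of the changes were small. The median rise was 0.73 and the median fall 0.92 in log2 size, and 33 of the rises and 34 of the falls were past 2-fold. In 120 of the 123 rises and 68 of the 81 falls, no NPC library overlapped a WT library, against 4.59% of all genes tested with every NPC library above and 4.04% with every NPC library below. The calls were made from these same values, which favours genes without overlap, so this describes the calls and is no separate support. The counts rested on single libraries to a degree: without WT library A, 50 rose and 37 fell, without NPC library D 58 and 35, and without NPC library C 78 and 50. Without WT library B 53 fell. Leaving out 1 library of another age, NPC library C at 3 weeks, gave 267 rises and 186 falls, among them all 204.

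Npc1 itself was the largest fall. It had 2606, 3237, 3488 and 3840.4 normalized counts in WT libraries and 491, 523, 489.9 and 311 in NPC libraries, a log2 change of -2.87 (SE 0.24; limma adjusted p = 1.34e-08). Every NPC library lay below every WT library. NPC library D was the lowest.

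**Figure D1:**
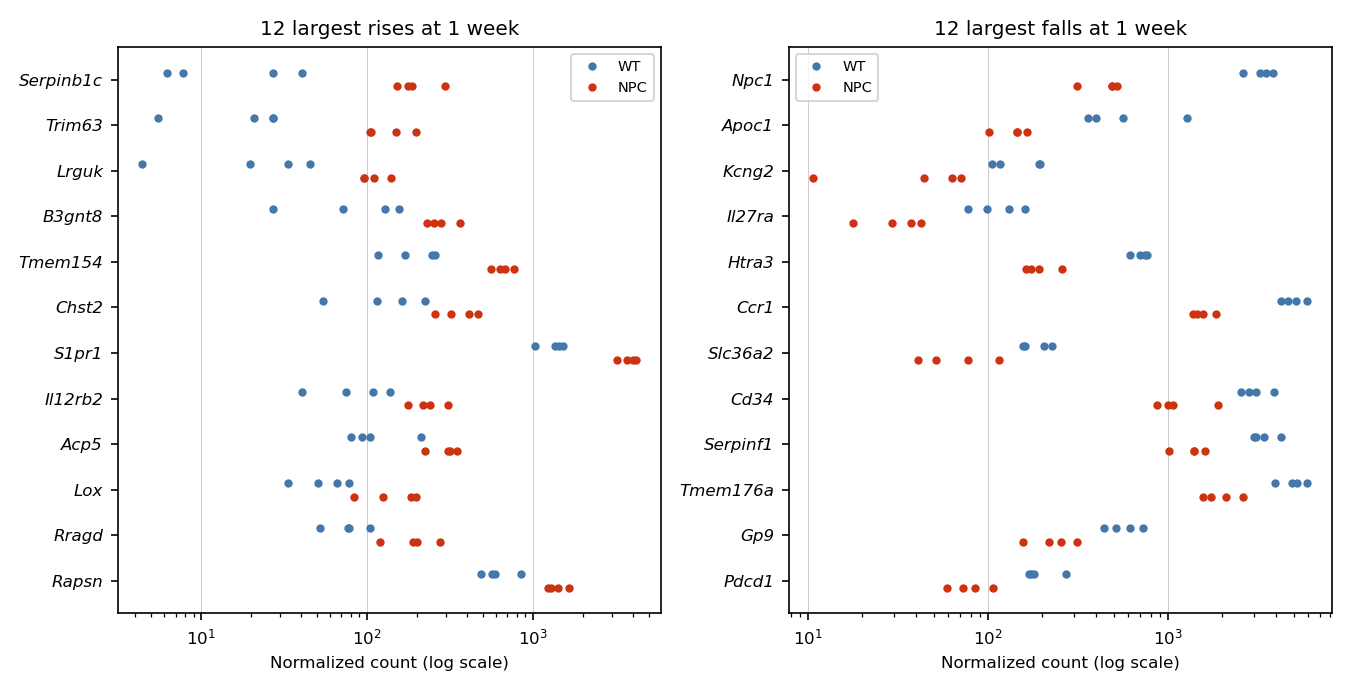
Normalized counts (log axis) of the 12 largest rises and the 12 largest falls at 1 week, with 1 point per library (WT blue, NPC red, 4 each). In all 24 genes the 2 groups do not overlap, which the rule that chose them required; Npc1 falls from 2606 or more in WT to 523 or less in NPC.

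Among genes averaging 100 or more normalized counts in the higher group, the largest rise was in Serpinb1c, which encodes an intracellular inhibitor of serine proteases. It had 6.18, 7.73, 27.0 and 40.5 normalized counts in WT and 178, 188, 152 and 294 in NPC libraries, a fold of 12 (4.32 to 33.4; limma adjusted p = 0.00646). The lowest NPC library was above the highest WT library by more than the whole WT range. Its near-identical copies Serpinb1a and Serpinb1b had at most 19.8 and 6.62 normalized counts in any of the 8 libraries. How reads shared between the copies were counted is not known.

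S1pr1 encodes a receptor for sphingosine 1-phosphate, a lipid that is made from the sphingolipids that lysosomes break down. It had 1035, 1433, 1360.3 and 1510.5 normalized counts in WT and 3196, 4042, 3704 and 4199 in NPC libraries, a fold of 2.85 (2.09 to 3.89; limma adjusted p = 0.000254). Tmem154, a membrane protein, rose from 116, 169, 246 and 258 to 631, 765, 556 and 681, a fold of 3.46 (2.47 to 4.85; limma adjusted p = 7.98e-05). Rapsn, known for clustering acetylcholine receptors at the neuromuscular junction, rose from a mean of 624 ± 156 (SD, n = 4) to 1398 ± 187, a fold of 2.27 (limma adjusted p = 0.00258). In each of these 3 genes all NPC libraries were above all WT libraries, and each call held without any 1 library.

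Among the other large rises were enzymes of the secretory and endolysosomal system. Acp5, the lysosomal tartrate-resistant acid phosphatase, had a fold of 2.61 (1.65 to 4.12). Chst2, a sulfotransferase of the Golgi, had a fold of 2.86, and B3gnt8, a glycosyltransferase, a fold of 3.48. Lox, the enzyme that crosslinks collagen, had 50.7, 66.2, 33.3 and 78.2 normalized counts in WT and 83.0, 197, 124 and 184 in NPC libraries. Trim63, a ubiquitin ligase best known from muscle, had a fold of 7.39, Lrguk a fold of 5.34, and Il12rb2, a subunit of the interleukin-12 receptor, a fold of 2.78. Lrguk kept its call without any 1 library. The others lost theirs without at least 1 library, with the highest adjusted p at 0.179 for Trim63 (without WT library B), 0.164 for Il12rb2, 0.133 for B3gnt8 and 0.0943 for Acp5 (all without WT library A), 0.126 for Lox and 0.0607 for Chst2 (both without NPC library D).

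Among genes of that level, the largest falls after Npc1 included surface receptors and secreted proteins. Apoc1, an apolipoprotein of lipid-handling macrophages, had 359.6, 399.6, 565 and 1277 normalized counts in WT and 145, 101, 144 and 165 in NPC libraries, a log2 change of -2.05 (SE 0.39; limma adjusted p = 0.00414). WT library D was the highest of the 8, and the NPC libraries lay close together. Htra3, a secreted serine protease that acts on TGF-beta signalling, fell from 764, 747, 696 and 617 to 257, 163, 193 and 173, with a log2 change of -1.86 (SE 0.23; limma adjusted p = 5.14e-05). Serpinf1, a secreted protein of the serpin family, fell from a mean of 3446 ± 573 to 1355 ± 244, and Cd34, a sialomucin of the cell surface, from 3088 ± 569 to 1211 ± 466 (SD, n = 4 each).

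Tmem176a and its neighbour Tmem176b encode related channels of antigen-presenting cells and fell together. Tmem176b had 13889, 11995, 11550.4 and 13347 normalized counts in WT and 6987, 5656, 4997 and 4381 in NPC libraries, and Tmem176a had log2 change -1.33 (SE 0.24). Tmem176b fell outside the rule for large changes and was named after its values were seen. Gp9, Slc36a2, Kcng2, Il27ra and Pdcd1 fell as well, with folds of 0.404, 0.361, 0.269, 0.274 and 0.407. Of the 12 falls, Kcng2, Il27ra and Pdcd1 lost their calls without single libraries, with the highest adjusted p at 0.145 (without NPC library B), 0.116 and 0.109 (both without NPC library D).

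Most lysosomal genes had small positive changes, and few members passed the test. Of 17 tested subunits of the vacuolar proton pump (V-ATPase), which acidifies lysosomes, 1 rose and 0 fell. Of 40 lysosomal hydrolases and membrane proteins 1 rose and 0 fell, of 12 cathepsins 2 rose and 0 fell, and of 20 MiT-TFE factors and nutrient sensors 1 rose and 0 fell. Over the 4 lists together, 5 of 89 genes rose and 0 fell, where 0.876% of all genes rose, and 68 (76.4%) had a positive change, against 50.4% of all genes tested. Their median log2 change was 0.17, against 0.00 over all genes. All 4 NPC libraries lay above all 4 WT libraries in 20 of the 89 genes, and below in 1, against 4.59% and 4.04% of all genes.

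Atp6v1a encodes the catalytic subunit of the V-ATPase. It had 2936, 3270.0, 3305 and 3469 normalized counts in WT and 5583, 5517, 5611 and 6661 in NPC libraries, a fold of 1.8 (1.51 to 2.14; limma adjusted p = 0.000255). The gap between the groups was wider than the whole WT range, and the call held in every fit that was run. Atp6v0a1, the subunit with the next smallest p, had a log2 change of 0.33 (SE 0.10; limma adjusted p = 0.11).

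The proteases Ctsb and Ctsd are among the most abundant transcripts of microglia. Ctsb had 265141, 315585, 311187 and 325601 normalized counts in WT and 484658, 551839.9, 453049 and 511672 in NPC libraries, a fold of 1.64 (1.3 to 2.07; limma adjusted p = 0.0183). Ctsd had a fold of 1.42 (1.19 to 1.71; limma adjusted p = 0.0338) and Lamp1, a structural glycoprotein of the lysosome membrane, 1.39 (1.16 to 1.66; limma adjusted p = 0.0491). Rragd encodes a GTPase that links lysosomal nutrient sensing to mTORC1. It rose from 51.9, 77.3, 104 and 76.9 to 188, 120.1, 199.7 and 277 (limma adjusted p = 0.0466).

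These 4 calls were near the threshold, and Lamp1 lost its call with the letter as a block in the 31 libraries (adjusted p = 0.0569), as did Trim63 (0.056). Leaving out single libraries raised the adjusted p to at most 0.0915 for Ctsb (without WT library A), 0.105 for Ctsd (without NPC library B), 0.204 for Lamp1 (without WT library B) and 0.221 for Rragd (without NPC library D). In the 8 libraries alone with the letter as a block, all 4 passed, with limma adjusted p = 8.1e-05, 0.000805, 0.00864 and 0.0217. The pairing by letter was taken from these same 8 libraries, and without the block Rragd did not pass in them. Rragd also lost its call without a filter and with libraries scaled to the same total. Lamp1 lost its call without a filter, with quantile normalization and with Xist as a covariate, and Ctsd with quantile normalization.

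The transcription factors TFEB, TFE3 and MITF bind the sequence CACGTG, often as TCACGTGA, in promoters of lysosomal genes. RefSeq windows were at hand for 4 of the 5 lysosomal genes that rose. The window of Rragd held no CACGTG. The 250 bases upstream of the annotated start of the other 3 are shown 5′ to 3′ on the gene's strand, to let the elements be seen beside the values, with each CACGTG in capitals (RefSeq, GRCm38.p6).
Atp6v1a, chr16:44139260-44139509, minus strand: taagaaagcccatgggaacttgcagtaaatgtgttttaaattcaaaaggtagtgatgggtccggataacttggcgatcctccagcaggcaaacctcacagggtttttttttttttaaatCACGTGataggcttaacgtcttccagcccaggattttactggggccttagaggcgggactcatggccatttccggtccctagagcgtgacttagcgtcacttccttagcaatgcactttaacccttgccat
Ctsd, chr7:142387828-142388077, minus strand: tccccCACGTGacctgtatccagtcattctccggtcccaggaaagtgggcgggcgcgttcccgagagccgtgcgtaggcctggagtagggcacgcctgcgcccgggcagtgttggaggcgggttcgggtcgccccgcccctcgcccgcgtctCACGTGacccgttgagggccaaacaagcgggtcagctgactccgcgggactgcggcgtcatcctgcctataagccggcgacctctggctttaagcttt
Lamp1, chr8:13158911-13159160, plus strand: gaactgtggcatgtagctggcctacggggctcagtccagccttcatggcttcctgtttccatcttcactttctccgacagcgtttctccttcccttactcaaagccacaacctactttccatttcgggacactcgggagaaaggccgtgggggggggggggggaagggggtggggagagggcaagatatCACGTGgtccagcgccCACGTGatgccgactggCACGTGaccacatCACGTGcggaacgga

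The upstream window of Lamp1 held 4 copies of CACGTG, whose first bases lie 61, 45, 28 and 15 bases before the start. That of Ctsd held 2, at 245 and 98 bases, and that of Atp6v1a held 1, at 131 bases. The longer TCACGTGA occurred once each in Atp6v1a and Ctsd. CACGTG reads the same on both strands. In the full promoter windows of the RefSeq table (250 bases before to 50 after the start), 11.6% of 10529 tested genes with a window held it, 21 of 98 genes that rose (21.4%), 9 of 62 that fell (14.5%) and 23 of 73 genes of the 4 lysosomal lists (31.5%). A match is a run of letters, and binding was not measured.

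Genes of membrane traffic toward the lysosome were seen among the rises and are named after their values were seen, outside any list. Gga2, an adaptor that carries lysosomal enzymes from the Golgi, rose from 2077, 2799, 2748 and 3045 to 4295, 4862, 4296 and 5038, a fold of 1.75 (1.45 to 2.1; limma adjusted p = 0.000769). Vps41, a subunit of the HOPS complex that tethers endosomes to lysosomes, had a fold of 1.42 (1.25 to 1.63), and Snap29, a fusion protein of autophagosomes, 1.47 (1.26 to 1.72). Atg7, the enzyme that starts the conjugation steps of autophagy, had 841, 1198, 990.1 and 976 normalized counts in WT and 1597, 1759, 1521 and 1883 in NPC libraries. Snx8, Rab7, Nsf and Tom1, which act in endosomal sorting and fusion, had folds of 1.74, 1.37, 1.42 and 1.43. Rab7 and Nsf lost their calls without single libraries, with the highest adjusted p at 0.0776 (without WT library A) and 0.0771 (without NPC library D).

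**Figure D2:**
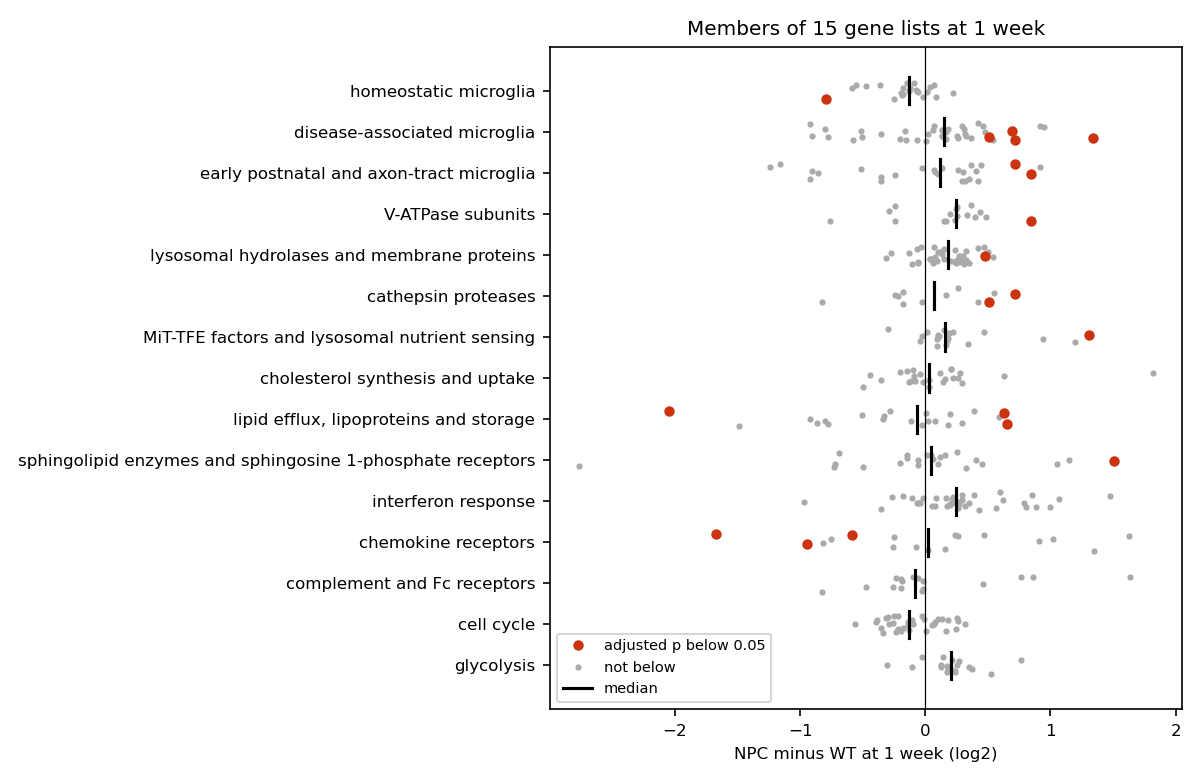
NPC minus WT log2 change at 1 week of each tested member (points) of 15 gene lists, with the median as a black bar and members with an adjusted p below 0.05 in red. The medians of the V-ATPase (0.25), the lysosomal hydrolases (0.18) and the interferon response (0.24) lie to the right of 0, and few members of any list are red.

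None of the cholesterol genes passed the test, while coats of lipid droplets rose. Of 25 genes of cholesterol synthesis and uptake 0 rose and 0 fell, with a median log2 change of 0.03, and the member with the smallest p was Insig2 (adjusted p = 0.213). Plin2 and Plin3 coat lipid droplets. Plin2 rose from 6331, 8370.3, 9105 and 9775 to 10971, 14855, 11074 and 15799.6 (limma adjusted p = 0.0475) and Plin3 from 1928, 2852, 2789 and 3216 to 3821, 4449, 3829 and 4344 (limma adjusted p = 0.0164). Of the 22 genes of lipid efflux, lipoproteins and storage these 2 rose and Apoc1 fell, with a median of -0.07. Of all genes tested, 0.876% rose and 0.577% fell. Of 23 sphingolipid enzymes and receptors, S1pr1 alone was called, and Spns2, an exporter of sphingosine 1-phosphate, had a log2 change of -0.72 (SE 0.20; limma adjusted p = 0.0684). Without WT library A the adjusted p was 0.251 for Plin2 and 0.108 for Plin3.

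Among 17 tested chemokine receptors 0 rose and 3 fell, among them Ccr1 and Ccr6, with a median of 0.02 over the list. Of all genes tested, 0.876% rose and 0.577% fell. Ccr1, a receptor for CCL3 and CCL5, had 5941, 5158, 4238 and 4647 normalized counts in WT and 1849, 1451, 1375 and 1574 in NPC libraries, a fold of 0.313 (0.213 to 0.46; limma adjusted p = 0.000798). Ccr6, the receptor for CCL20, fell from 1050.3, 719.8, 974 and 1033 to 557, 535, 422 and 437 (limma adjusted p = 0.000376).

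The remaining immune lists held few calls, where 0.876% of all genes tested rose and 0.577% fell. Of 22 genes of TGF-beta signalling 0 rose and 2 fell, Htra3 and Eng, a co-receptor of TGF-beta that had a log2 change of -0.90 (SE 0.21; adjusted p = 0.115 without NPC library D). Of 26 inflammatory genes 1 rose, Tnfaip2, a target of NF-kB, from 387, 478, 608 and 597 to 1008, 1079, 1073 and 984 (limma adjusted p = 0.00966, and 0.0626 without WT library A). No member was called among 38 genes of the interferon response, 34 of the cell cycle, 19 of glycolysis, 34 of oxidative phosphorylation, 26 immediate early genes, 16 of antigen presentation and 16 of the complement and Fc receptor list. The interferon list had a median of 0.24 with 29 of 38 members positive. Its summed level was 26830 to 28339 in WT, 28269 to 31282 in NPC libraries B, C and D, and 44077 in NPC library A.

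Few of the genes that mark homeostatic or disease-associated microglia differed at 1 week. Of 23 homeostatic genes 0 rose and 1 fell, where 0.577% of all genes fell, with a median of -0.13. The fall was Selplg, the ligand of P-selectin, with 98744, 60063, 56146 and 50589 normalized counts in WT and 55992, 35457, 36636 and 25924 in NPC libraries (limma adjusted p = 0.0129). The 2 groups overlapped, because WT library D lay below NPC library A. Without NPC library D its adjusted p was 0.0912. Of 40 disease-associated genes 4 rose (Ctsb, Cadm1, Lox and Ctsd) and 0 fell, where 0.876% of all genes rose, with a median of 0.15. Cadm1, an adhesion protein, had a fold of 1.62 (limma adjusted p = 0.0191, and 0.114 without WT library A). In 7 of the 40, all NPC libraries were above all WT libraries, against 4.59% of all genes.

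Without the letter as a block, well-known members of the disease-associated programme had no call and changes of either sign. Cst7, an inhibitor of cathepsins, had 339.8, 247, 353 and 439 normalized counts in WT and 331, 292, 244 and 362 in NPC libraries, a fold of 0.9 (0.593 to 1.37). Spp1, which encodes osteopontin, had a fold of 0.533 (0.278 to 1.02), and Lpl, lipoprotein lipase, 0.527 (0.346 to 0.803; limma adjusted p = 0.14). Gpnmb, a lysosomal and membrane glycoprotein, had 0.78 with an interval of 0.253 to 2.41. Hpse, a heparanase, had 1.93 (1.15 to 3.25; limma adjusted p = 0.254). With the letter as a block, Lpl passed in the 31 libraries (adjusted p = 0.0186), and in the 8 libraries alone Lpl (0.000162) and Spp1 (0.00483) passed as falls and Hpse (0.00303) as a rise. Lpl and Spp1 also differed between letters, and the block was chosen from these same libraries. The calls gained with it are therefore no separate support. Of 26 early postnatal and axon-tract genes 2 rose, Ctsb and Dab2, where 0.876% of all genes rose. Dab2, an endocytic adaptor, had 2379.9, 4739, 4826 and 4824 normalized counts in WT and 6795, 6472, 7438 and 8278 in NPC libraries. Without WT library A the adjusted p of Dab2 was 0.224.

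Of the markers of other cells, Il7r alone was called. In bulk RNA, fewer cells of a type and less RNA per cell cannot be told apart. Il7r, from the lymphocyte list, fell from 745, 482, 454 and 360.5 to 294, 241, 159 and 178 (limma adjusted p = 0.00142), and is 1 of 4 tested members. Cd79b, a subunit of the B cell receptor in the same list, had 1932 to 2019.7 normalized counts in WT and 1393 to 2152 in NPC libraries (limma adjusted p = 0.856), and Cd4 averaged 16.1 in WT and 7.08 in NPC. Ms4a1 and Ncr1 were at 0 in all 8 libraries. The summed oligodendrocyte markers were 5625 to 12681 in WT and 5563 to 9607 in NPC libraries, with a median log2 change of -0.71 over 13 tested genes. The summed markers of monocytes and neutrophils were 358 to 545 in WT and 225 to 1301 in NPC libraries, with a median of 1.18 over 12 tested genes, the 2 highest sums being NPC libraries C and D. With that score as a covariate, 83 genes rose and 53 fell, and of the genes named above B3gnt8, Cadm1, Dab2, Eng, Kcng2, Lox, Nsf, Plin2, Plin3 and Rragd did not pass. With the oligodendrocyte score as a covariate Apoc1, B3gnt8, Ctsd, Il12rb2, Kcng2, Plin2, Plin3, Rab7 and Snx8 did not pass. The part of these cells in the result was not tested further. The summed markers of border-associated macrophages were 15735 to 32541 in WT, lowest in library A, and 23911 to 37381 in NPC libraries. In the marker lists of neurons, astrocytes, endothelial cells and border-associated macrophages 0 of 14, 13, 13 and 11 tested genes were called. Their median log2 changes were 0.40, 0.66, 0.16 and 0.19. In the 8 libraries alone with the letter as a block, 2 astrocyte markers rose, Aldh1l1 and Gfap (limma adjusted p = 0.0481 and 0.0392). In that fit 1 endothelial and 1 border-associated macrophage marker also rose, and 2 oligodendrocyte markers fell.

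A small set of genes near 0 in WT was detected in NPC libraries and is named after its values were seen. Epha3, a receptor of axon guidance, had 0, 1, 0 and 0 reads in WT and 26, 2, 32 and 50 in NPC libraries. Lmo3, a transcriptional co-regulator of neurons, had 0, 1, 0 and 1 reads in WT and 15, 24, 10 and 29 in NPC. Mtcl1, Chrd and Rgs17 had 0 to 4 reads in WT libraries and 1 to 75 in NPC. Among NPC libraries, B had the fewest reads of Epha3, Mtcl1 and Rgs17, and C the fewest of Lmo3 and Chrd. The summed neuron markers were 733, 476, 718 and 711 normalized counts in WT and 683, 369, 1371 and 1298 in NPC libraries. Among the NPC libraries they were lowest in B and highest in C. Their part in these values was not tested. The fitted change of such genes depends on the pseudocount, so no fold is given, and in the 8 libraries alone none of the 5 passed the test (adjusted p = 0.0939 to 0.295 without a block). With edgeR on the 31 libraries Epha3 passed (adjusted p = 0.0369), and Rgs17, Mtcl1, Lmo3 and Chrd did not (0.0668, 0.109, 0.112 and 0.235). DESeq2 gave an adjusted p for Mtcl1 only (0.0253). With the monocyte and neutrophil covariate Rgs17 and Chrd did not pass.

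Most of the 1-week calls were also called later. Of the 123 rises, 101 were called as rises at 3 weeks, 100 at 6 weeks and 103 at 9 weeks, where 14.3%, 8.76% and 11.2% of all genes tested rose. Of the 81 falls, 59, 63 and 64 were called as falls, against 12.6%, 6.5% and 7.77% of all genes. A total of 143 of 204 (70.1%) were called in the same direction at all 3 later ages, and 21 at none. The WT and NPC libraries of each age are different animals, and the ages share the fit's estimate of spread.

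For a part of the calls the 1-week change was the smaller one. The median log2 change of the rises was 0.73 at 1 week and 0.98, 0.90 and 1.03 at 3, 6 and 9 weeks. That of the falls was -0.92 at 1 week and -0.77, -0.98 and -1.24 at the later ages. A contrast of the 1-week change with the mean change at 3, 6 and 9 weeks called 152 genes higher at 1 week (1.08%) and 343 lower (2.44%). Among the 204 calls, 39 were smaller at 1 week than later and 9 were larger at 1 week or of opposite sign. S1pr1 changed by 1.51 at 1 week and by 2.82, 2.81 and 2.95 at 3, 6 and 9 weeks (contrast -1.35, SE 0.26; limma adjusted p = 0.00154). Lox changed by 1.34 and then by 3.63, 4.99 and 5.19, and Serpinf1 by -1.35 and then by -2.74, -3.13 and -3.33. Gpr165, an orphan receptor, had a 1-week change of -1.08 and a 9-week change of -3.85.

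**Figure D3:**
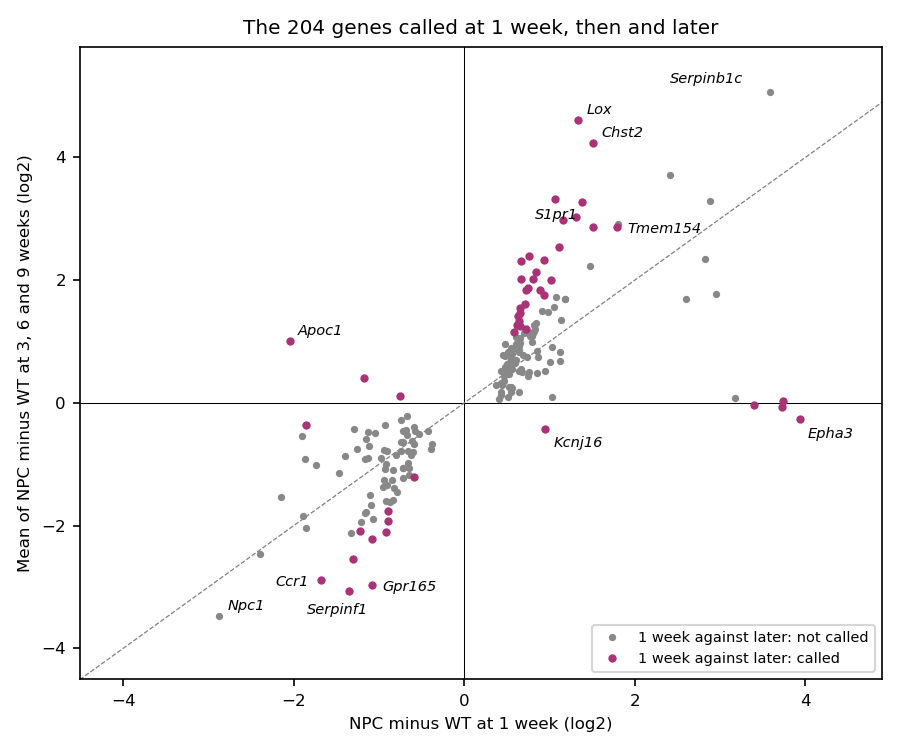
NPC minus WT log2 change at 1 week (horizontal) against the mean change at 3, 6 and 9 weeks (vertical) for the 204 genes called at 1 week, with genes called in the contrast between them in purple and equality as a dashed line. Lox and Chst2 lie far above the line, Npc1 and Serpinb1c are not called in the contrast, and Apoc1 and Epha3 lie apart from the diagonal.

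Among genes averaging 100 or more in a 1-week group, the 6 with the most negative contrast had no call at 1 week. Gpnmb changed by -0.36 at 1 week and by 3.02, 4.45 and 4.25 later (contrast -4.27, SE 0.92; limma adjusted p = 0.00578). Hpse changed by 0.95 and then by 4.40, 5.37 and 5.44, and C2, an early complement protease, by 1.64 and then by 4.98, 5.89 and 5.26. Cxcl10, an interferon-induced chemokine, changed by -0.35 at 1 week and by 3.19 at 3 weeks. Cst7 changed by -0.15 and 2.39, and Spp1 by -0.91 and 1.11, at the same ages. From 1 to 3 weeks the mean of Gpnmb dropped from 1199 to 16.1 among WT libraries and from 911 to 130 among NPC. The WT mean of Hpse dropped from 1539 to 89.5 and its NPC mean from 2715 to 1978. For C2 these means dropped from 386 to 28.9 and from 1047 to 852. For Cxcl10 and Cst7 the WT means dropped as well, from 202 to 50.1 and from 345 to 183. Their NPC means rose, from 165 to 450 and from 307 to 954. Of the 6 with the most positive contrast, Gpr165 and Serpinf1 fell at 1 week, while Trp53i11, Fry, Nav3 and Sema6d had 1-week changes of -0.39, -0.09, -0.84 and -1.05 with no call, and 3-week changes of -2.56, -1.92, -2.94 and -2.82 that were all called. By list, 27 of the 40 disease-associated genes, 23 of the 38 interferon genes and 16 of the 26 early postnatal genes were called lower at 1 week than later, against 2.44% of all genes. Such a call compares NPC minus WT differences and does not say which group changed with age. Of the V-ATPase, cholesterol and MiT-TFE lists, 0 of 17, 0 of 25 and 1 of 20 genes were called lower at 1 week. The other lysosomal lists held more, with 4 of 12 cathepsins and 7 of 40 hydrolases and membrane proteins. Of the genes of lipid efflux, lipoproteins and storage, 9 of 22 were called lower at 1 week.

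Few genes differed more at 1 week than later. Apoc1 fell at 1 week, changed by 0.41 and 0.86 at 3 and 6 weeks without a call, and rose by 1.74 at 9 weeks (limma adjusted p = 0.00371; contrast -3.05, SE 0.46). Nab2, a repressor of the EGR transcription factors, had 1061, 1588, 1742 and 1717 normalized counts in WT and 752, 889, 999.5 and 931 in NPC libraries, and changes between 0.02 and 0.18 later. Zfp78, a zinc finger gene, had a 1-week change of -1.86 and a contrast of -1.50, and Cd72, a receptor of B cells and macrophages, -1.17 and -1.57. Kcnj16, a potassium channel subunit, rose by 0.95 at 1 week and fell by 0.65 at 6 weeks (limma adjusted p = 0.0279). Gna12, a G protein subunit, had 12522, 5899, 13585 and 12483 normalized counts in WT and 21444, 21168, 25634 and 24526 in NPC libraries and no call at a later age, but its contrast was not called (adjusted p = 0.539). Without single libraries the adjusted p at 1 week reached 0.187 for Gna12 (without WT library B), 0.235 for Cd72 (without NPC library D) and 0.0587 for Kcnj16 (without WT library B). Cd72 also lost its call with a pseudocount of 8, without a filter, with quantile normalization, with edgeR and with the monocyte and neutrophil covariate. In the 8 libraries alone without a block, Cd72 and Kcnj16 did not pass. Gna12 lost its call without a filter, with libraries scaled to the same total and with quantile normalization. Nab2, Zfp78, Cd72, Kcnj16 and Gna12 were named after their values were seen.

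The letters were compared next, to ask whether WT and NPC libraries of like letter behave as matched pairs. For each gene the mean of the group was taken away and the remaining deviations of WT and NPC libraries were correlated over 14046 genes. Same-letter libraries had r of 0.11 for A, 0.13 for B, 0.12 for C and 0.16 for D, with a mean of 0.13. The 12 pairs of unlike letter had a mean of -0.04. Deviations from a group mean cancel within the group, which ties this mean to the same-letter mean. It is therefore no separate comparison. Each of the 8 libraries correlated best with its own letter, but only 5 did by Spearman's rho and 4 over genes averaging 100 or more, or 1000 or more. Of the 24 ways to match the letters, the labelled one had the highest mean (exact permutation test, one-sided, p = 0.0417, the smallest this design allows). Genes are not independent replicates, so r describes these libraries.

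The agreement was uneven over letters when abundant genes were taken. Over 9939 genes averaging 100 normalized counts or more the mean same-letter r was 0.24, and the lowest pair had 0.06. Over genes averaging 1000 or more it was 0.32 (exact permutation p = 0.0833), again with 0.06 in the lowest pair. At 3 weeks the same-letter mean over all genes was 0.02 (exact p = 0.333) and at 6 weeks -0.08 (exact p = 0.75). Depth also followed the letters in part: WT libraries A to D held 23.2, 24.8, 26.1 and 40.5 M reads and NPC libraries 28.4, 27.1, 29.3 and 34.6 M, with D deepest in both. Its part in the correlation was not tested.

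**Figure D4:**
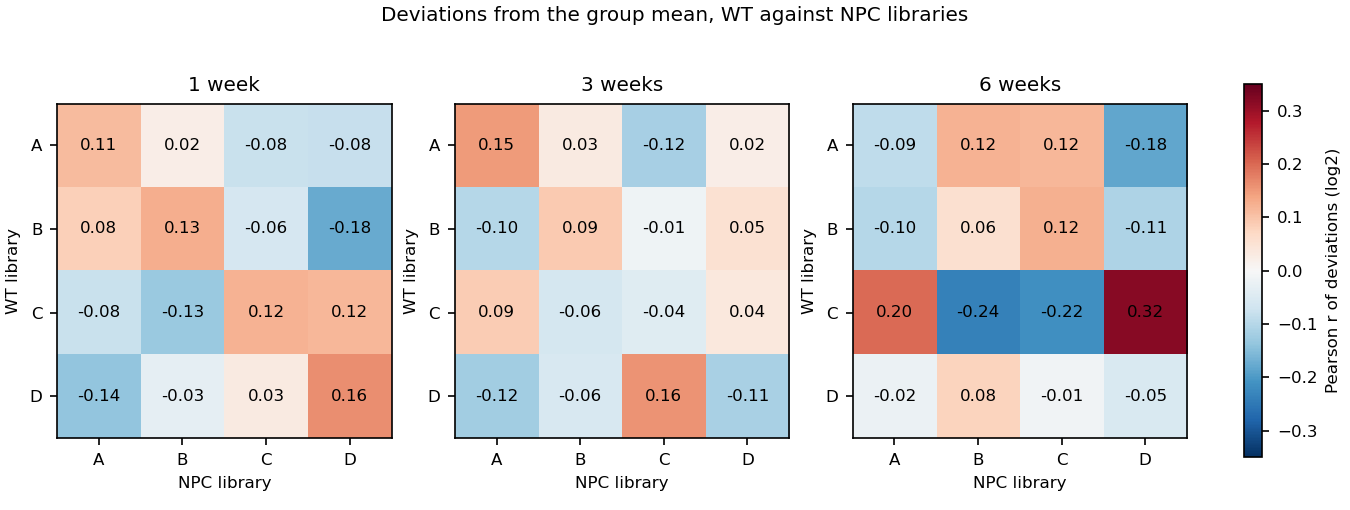
Pearson r between the deviations of each WT library (rows) and each NPC library (columns) from their group means, over 14046 genes, at 1, 3 and 6 weeks. At 1 week the diagonal holds the highest value of every row and column, from 0.11 to 0.16, and at 3 and 6 weeks it does not.

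With letter terms in the fit of 31 libraries, 31 genes differed between letters at 1 week (0.221% of those tested). Gpnmb had 121, 609, 1103 and 2963 normalized counts in WT and 93.5, 508, 859 and 2184 in NPC libraries (limma F test, adjusted p = 0.0198). It varied from 121 to 2963 within WT, while the ratio of NPC to WT within a letter stayed between 0.737 and 0.834. Spp1, Lpl and Itgax, of the same programme, were lowest in A and highest in D of both genotypes. Fam20c, a secretory kinase, had 1458, 2815, 3683 and 4492 in WT and 2332, 4789, 5070.1 and 7367 in NPC libraries. Selplg and Tgm2, transglutaminase 2, were highest in A and lowest in D of both genotypes, Tgm2 with 929, 344, 464 and 228 in WT and 489.7, 214, 429.6 and 162 in NPC libraries. Chst8, a sulfotransferase, was 171 and 132 in the A libraries and 39.1 and 34.7 in the D libraries. Others of the 10 with the smallest p (Ephb2, Chrna3, Cdh20, Prdm13, Plekhg1 and Fut9) were at or near 0 in both B libraries and had at most 46.0 in any. The count of 31 fell to between 5 and 14 when single libraries were left out.

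Members of several lists were lowest in A and highest in D of both genotypes, or the reverse. Of 26 early postnatal and axon-tract genes, 11 (42.3%) were lowest in A and highest in D of both genotypes, and of 40 disease-associated genes 11 (27.5%), against 2.03% of all genes tested. Of 23 homeostatic genes 8 (34.8%) were highest in A and lowest in D of both, against 1.91%. The order lowest in A and highest in D was also seen in 4 of 22 genes of lipid efflux and storage, 2 of 19 of glycolysis and, among markers of other cells, 2 of 11 of border-associated macrophages and 2 of 13 of astrocytes. The part of those cells was not tested. The lists share members such as Gpnmb, Spp1 and Itgax. The labels give no age in days, and no other difference between letters.

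**Figure D5:**
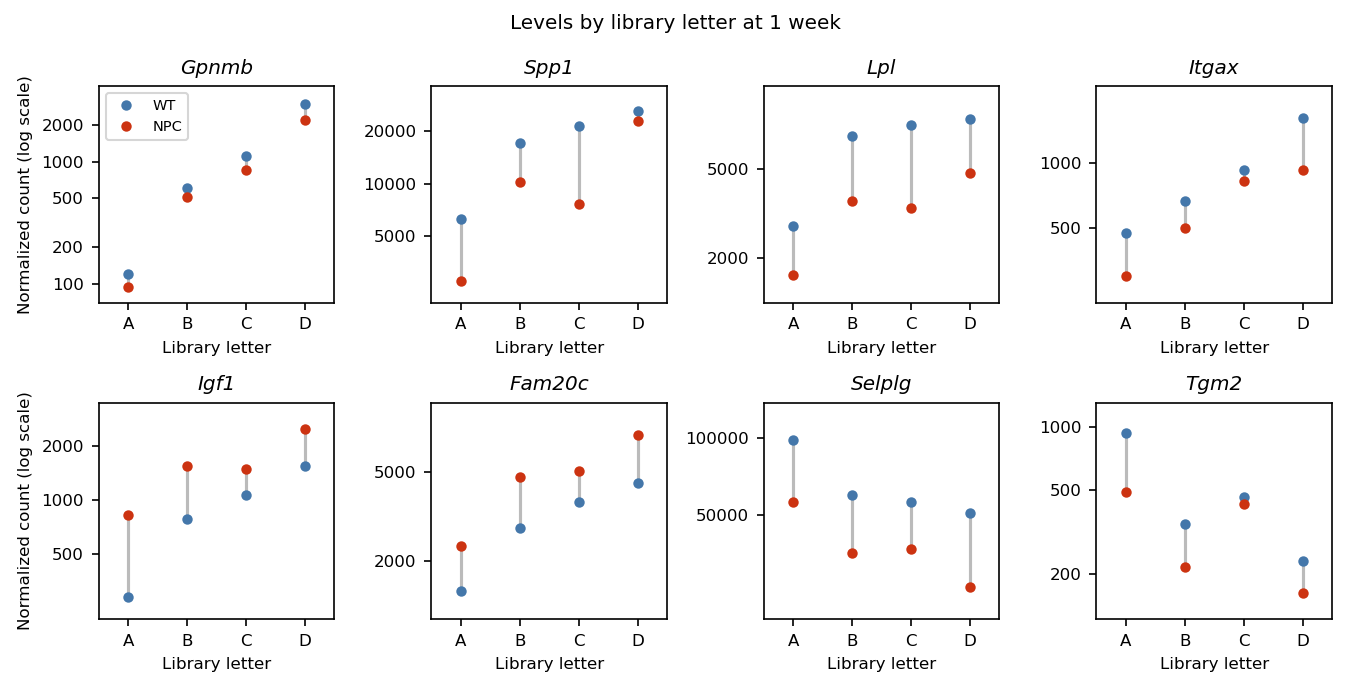
Normalized counts (log axis) of 8 genes by library letter at 1 week, WT in blue and NPC in red, with a grey bar joining the libraries of the same letter. Gpnmb spans 121 to 2963 in WT while its NPC point stays just below the WT point of the same letter, and Selplg and Tgm2 run the other way.

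Taking the letter as a block changed the counts according to the fit. In the 31 libraries, with letter terms at 1 week only, 136 genes rose and 103 fell, and 197 of the 204 remained. With that block Fam20c (adjusted p = 0.0243), a gene that differed between letters, passed as well. The pairing was taken from the 1-week libraries themselves, so calls gained with a block are no separate support for a genotype difference. In the 8 libraries alone, 135 rose and 99 fell without a block, and 368 (2.87%) and 298 (2.32%) with it, with the spread estimated from these 8 libraries. Without a block the fit of 8 libraries held 139 of the 204 calls, all in the same direction. The block fit of 8 libraries held 189 of the 204 calls, all in the same direction. In it 11 of 40 disease-associated genes rose and 3 fell, 5 of 17 V-ATPase subunits rose, 7 of 40 lysosomal hydrolases rose, 6 of 38 interferon genes rose and 5 of 23 homeostatic genes fell, each with 0 in the opposite direction except the first. Igf1, a growth factor of postnatal microglia, had 288, 778, 1058 and 1549 normalized counts in WT and 827, 1536, 1478 and 2495 in NPC libraries, with adjusted p = 0.339 without and 0.00416 with the 8-library block. Within each letter the NPC library was the higher. Lpl had NPC to WT ratios from 0.43 to 0.607. Gpnmb did not pass (adjusted p = 0.187).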

How the data were processed

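Cerebellar microglia were sorted by CD11b and Tmem119 and sequenced as bulk RNA. Per the submitters' processing notes, FastQC 0.11.4, STAR 2.5.1b, DESeq2 and build mm9 were used; the annotation and the counting tool are not given in the sources used here. The deposited table holds 24015 genes in 41 libraries as a signal, normalized counts that the authors made by dividing the counts by a size factor per library; whole reads were recovered from its steps (within 1e-06), and 0 columns were left unused. The samples are mice, as the labels count them.

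Values were tested as log2(value + 1) with limma 3.58.1 in R 4.3.3, with trend and robust settings, over 31 untreated libraries, for genes that reached 10 normalized counts in 3 or more libraries, with Benjamini-Hochberg adjustment at 0.05. edgeR 4.0.16 and DESeq2 1.42.0 on the recovered reads were alternatives, with other pseudocounts, filters, scalings, covariates and libraries. The fits were tested on simulated data. Gene names were matched to RefSeq GRCm38.p6 for promoters only, since the table carries no coordinates.

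The named genes were the 12 largest rises and 12 largest falls among called genes whose higher group averaged 100 or more and no overlap between groups, the called members of each list with the 2 of smallest adjusted p, the 10 genes of smallest p for the letter, and the 6 largest in each direction for the contrast with later ages. A few genes that the rule names are not reported here. Members, lists and tests were chosen with earlier results of these data known. Same-letter libraries were paired where every letter's r exceeded 0.1, which held at 1 week (0.11 to 0.16) but in 3 of 4 letters after quantile normalization, with Spearman's rho (lowest 0.049), and over genes averaging 100 or 1000 or more; the pairing comes from the data and the shared letter, not from a stated litter or day. Depth was 23.2 M to 40.5 M reads per library.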

Additional observations from a re-analysis of the deposited data

Results flagged for a closer look

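In groups of 4 libraries, a library standing far from the other 3 was seen 15 times in 228 groups of named genes, where chance gives about 1 in 20. In NPC library D, Atp6v1a (6661 normalized counts) and Fn1 (496) were high and Npc1 (311) was low. In NPC library A, H2-D1 (10605), Icam1 (6364) and Insig2 (1639) were high and Pfkl (3769.7) was low. In NPC library C, Cbr2 was low (365). In WT library A, Dab2 (2379.9) and Mrc1 (3992) were low. In WT library B, Vps41 was high (3321) and Gna12 low (5899). In WT library C, Pdcd1 was high (272), and in WT library D Dhcr7 was high (1937) and Csf1r low (363896).

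The genotype difference at 1 week and the mean difference at 3, 6 and 9 weeks differed by the limma contrast in further named genes, given as 1 week minus later on the log2 scale. The contrast was negative for Gpnmb (-4.27), Hpse (-4.12), Cxcl10 (-3.81), C2 (-3.74), Cst7 (-3.51), Spp1 (-3.31), Apoc1 (-3.05), Cd72 (-1.57), Zfp78 (-1.50) and Nab2 (-0.87). It was positive for Epha3 (4.19), Mtcl1 (3.80), Lmo3 (3.70), Chrd (3.42), Trp53i11 (2.48), Gpr165 (1.88), Fry (1.85), Nav3 (1.73), Sema6d (1.72), Serpinf1 (1.72) and Kcnj16 (1.37). Epha3, Mtcl1, Lmo3 and Chrd were near 0 in WT at 1 week, so their fitted values depend on the pseudocount and are no measure of fold.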

How the results depend on the processing

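Of 58 named genes called at 1 week, 29 kept the call under the 16 alternatives that leave out no 1-week library, 24 also under every leave-out, and 0 reversed. The counts of 123 rises and 81 falls became 291 and 237 with array weights, 208 and 164 with DESeq2, 267 and 186 without NPC library C at 3 weeks, and 368 and 298 in the 8 libraries with a replicate block; the block in 31 libraries gave 136 and 103, and edgeR 115 and 68. With the monocyte and neutrophil covariate 53 fell. Leaving out each 1-week library gave 50 to 108 rises and 35 to 92 falls. The 31 letter genes became 13 and 84 with pseudocounts of 0.5 and 8, 190 without a filter, 7 with a stricter filter, 18 with Xist as a covariate, 81 without NPC library C at 3 weeks, 86 in the 8 libraries with a replicate block, and 5 to 14 without single libraries, a check added after seeing the data. The 495 genes of the contrast with later ages became 879 without NPC library C at 3 weeks, 858 with DESeq2, 280 with the oligodendrocyte covariate and 316 to 500 without single libraries (316 without WT library D, 328 without NPC library C). The 143 calls shared by all ages became 277 without NPC library C at 3 weeks, 231 with DESeq2 and 69 to 139 without single libraries (69 without WT library A, 71 without NPC library D). The same-letter r of 0.13 was 0.3225 over genes averaging 1000 or more, added after seeing the data, where its exact permutation p was 0.0833. The cause of these shifts was not tested.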
